A study of Mus musculus with 25 samples.

Results

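Prdm14, Tfcp2l1, Nr5a2 and Nr0b1 are 4 genes of the naive pluripotency network, and their chromatin contacts were followed in 9 lists of pairwise interactions between 10 kb bins. The authors named genes per bin in the 2 lists of TKO cells, and each of the 4 genes was named in a single bin. Every listed interaction with 1 of these 4 bins as an anchor was taken, which gave 90 interactions of 912901 in all 9 lists. By list, the 4 bins had 16 interactions in ES H3K27ac, 25 in the uninduced and 20 in the induced TKO H3K27ac list, 4 in ES KLF4, 8 in MEF Hi-C and 17 in ES Hi-C. They had 0 in MEF H3K27ac and in KLF4 at day 3 and day 6.

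Naive pluripotency is the state of the preimplantation epiblast and of mouse embryonic stem (ES) cells grown with inhibitors of differentiation signals. Tfcp2l1 encodes a transcription factor of the CP2 family that acts downstream of LIF and STAT3. Nr5a2 (LRH-1) and Nr0b1 (DAX1) encode orphan nuclear receptors: the first binds DNA as a monomer and activates pluripotency genes, and the second lacks the classical DNA-binding domain and acts mainly as a corepressor, also of the first. Prdm14 encodes a zinc finger protein with a PR domain that represses FGF signalling and DNA methyltransferase genes in naive cells and is needed for primordial germ cells. Fibroblasts keep such genes silent, and reprogramming has to activate them.

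The 25 libraries came from mouse cells fixed with 1% formaldehyde. Mouse embryonic fibroblasts (MEFs) of passage 3 and the reprogramming cells came from E13.5 embryos heterozygous for an Oct4-GFP reporter, the OKSM cassette (Oct4, Klf4, Sox2 and Myc) and its activator rtTA3. Reprogramming cells had doxycycline and ascorbic acid for 3 days, unsorted, or for 6 days, sorted for the surface antigen SSEA1. ES cells were of the V6.5 line, and were kept in 2i medium for HiChIP. The cells labelled TKO were also V6.5 cells in 2i, without doxycycline (0 h) or with it for 24 h, and the labels do not spell out TKO. HiChIP joins DNA ends that lie close together and then enriches them with an antibody, here against H3K27ac, a mark of active promoters and enhancers (MEF 2 libraries, ES 2, TKO 0 h 3, TKO 24 h 3), or against KLF4 (day 3 3 libraries, day 6 4, ES 4). Hi-C (MEF 2, ES 2) uses no antibody. The HiChIP libraries held 48.7 to 181 M contacts each.

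Strength is given as the deposited CPM, which in HiChIP scales the contacts of a library to its contact total on the same chromosome. Chromosome X has fewer contacts than chromosome 1, so 24 contacts made 5.94 CPM at Nr0b1 while 38 made 3.01 CPM at Tfcp2l1 in the same ES library, and CPM of Nr0b1 is not set against the other genes. An interaction was listed only above 3 CPM in the libraries that the authors' filter used, so a missing interaction has an unknown value below the filters. Libraries of a group that a chi-square test of their counts did not tell apart (p of 0.01 or more) were counted as 1 sample where another pair of the group differed: replicates 2 and 3 of TKO 0 h, 1 and 3 of TKO 24 h, and 1 with 2 and 3 with 4 of ES KLF4. In ES KLF4 replicates 1 and 2 stood apart from 3 and 4, with a chi-square per degree of freedom from 1.25 up to 1.5 between the pairs, so values of the gene bins are given library by library, and a mean with n = 2 elsewhere is over these pairs. The labels do not say whether replicates were separate cultures, so the tests measure the spread between these samples, which may be technical. Bulk profiles also cannot tell fewer cells with a contact from a weaker contact in each cell.

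Positions are on mm10. The Prdm14 bin is chr1:13120001-13130000 and holds the start region of a gene annotated at chr1:13113428-13127163. The Tfcp2l1 bin is chr1:118620001-118630000, with the gene at chr1:118627923-118685168, so the gene body lies in the next 6 bins of higher coordinate. The Nr5a2 bin, chr1:136960001-136970000, holds the outer start of a gene annotated at chr1:136842562-136960448. A second, inner start of Nr5a2 lies in the adjacent bin at 136953630. The Nr0b1 bin is chrX:86190001-86200000 and holds the whole gene, chrX:86191775-86195947. In the authors' annotation the bins of Prdm14, Tfcp2l1 and Nr0b1 had an H3K27ac peak at 0 h and at 24 h, and the Nr5a2 bin had one at neither time. In ES cells the authors' topological domains placed Tfcp2l1 in a domain of 480 kb, Nr0b1 in 560 kb, Nr5a2 in 1320 kb and Prdm14 in 2760 kb. The Tfcp2l1 domain had the same borders in MEF, whereas the domain of Prdm14 was 1880 kb and that of Nr5a2 520 kb there. The MEF domains included 0 on chromosome X, so the domain of Nr0b1 could not be compared.

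The 250 bases before each transcript start are shown because KLF4 HiChIP was among the assays. The outer start of Nr5a2 lies in the bin that was followed and the inner start in its neighbour. They were taken from RefSeq (GRCm38.p6, the assembly that mm10 names), and Prdm14 had no entry there. They are written 5′ to 3′ on the gene's strand, with capitals for a match to a motif.
Positions are chr1:118627695-118627944 on the plus strand for Tfcp2l1, chr1:136953631-136953880 and chr1:136960449-136960698 on the minus strand for Nr5a2, and chrX:86191525-86191774 on the plus strand for Nr0b1.
Tfcp2l1: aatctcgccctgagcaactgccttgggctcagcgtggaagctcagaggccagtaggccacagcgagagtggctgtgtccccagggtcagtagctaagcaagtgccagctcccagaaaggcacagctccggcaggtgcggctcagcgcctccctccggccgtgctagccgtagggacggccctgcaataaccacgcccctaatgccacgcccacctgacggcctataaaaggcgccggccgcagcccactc
Nr5a2, inner start: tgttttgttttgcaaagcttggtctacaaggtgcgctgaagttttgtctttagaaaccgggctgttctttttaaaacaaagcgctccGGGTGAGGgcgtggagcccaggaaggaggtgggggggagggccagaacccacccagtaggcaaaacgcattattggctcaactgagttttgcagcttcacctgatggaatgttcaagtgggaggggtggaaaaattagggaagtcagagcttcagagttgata
Nr5a2, outer start: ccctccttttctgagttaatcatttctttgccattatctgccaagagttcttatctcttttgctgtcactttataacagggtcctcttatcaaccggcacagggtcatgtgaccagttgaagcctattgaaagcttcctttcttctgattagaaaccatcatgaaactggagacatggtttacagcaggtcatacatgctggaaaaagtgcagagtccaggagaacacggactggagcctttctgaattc
Nr0b1: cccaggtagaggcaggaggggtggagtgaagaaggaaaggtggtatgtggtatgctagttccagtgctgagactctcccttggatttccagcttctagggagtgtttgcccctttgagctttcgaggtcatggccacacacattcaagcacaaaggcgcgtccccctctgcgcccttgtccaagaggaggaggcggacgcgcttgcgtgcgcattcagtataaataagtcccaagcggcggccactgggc
The letters searched, on both strands, were CCNCACCC (KLF factors), CAAGGTCA (the half-site of NR5A2 and ESRRB), ATGCAAAT (octamer), GGTCTCTAA (PRDM14) and the paired CCAG motif of TFCP2L1. The only match to these letters was GGGTGAGG, a KLF motif on the opposite strand, which begins at −163 from the inner start of Nr5a2. Variants of the letters, such as CCACGCCC in the Tfcp2l1 window, were not searched. Of 32851 RefSeq promoter windows of this length, 14.9% held the KLF letters, 1.33% the half-site, 1.6% the octamer, 0.24% the PRDM14 letters and 2.78% the TFCP2L1 letters. The Tfcp2l1 window had 65.2% G and C and 16 CpG dinucleotides, Nr0b1 57.2% and 11, the inner Nr5a2 start 49.6% and 6, and the outer Nr5a2 start 43.2% and 2.

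Each of the 4 genes had listed H3K27ac interactions in ES and in TKO cells and 0 in MEF. A gene could be followed only where the authors had named it in a TKO list, so an H3K27ac interaction in TKO was fixed by the choice, contacts in ES cells of the same line were favoured by it, and the 12695 annotated genes share this selection. The numbers are therefore a description. Prdm14 had 7 in ES, 8 in TKO at 0 h and 7 at 24 h. Tfcp2l1 had 7, 14 and 9, Nr5a2 1, 2 and 3, and Nr0b1 1 in each. On a log2 scale with 1 added, the median ratio of ES to MEF over the 4 genes was 2.00, against 1.00 over the 12695 annotated genes. Having 0 in MEF and at least 1 in ES was common: it held for 29.2% of all annotated genes, 37.8% of those on chromosome 1 and 25.2% of those on chromosome X. Among genes of chromosome 1, 6.25% had 7 or more H3K27ac interactions in ES, and 0.938% had 14 or more in TKO at 0 h. With 1 count cutoff for all chromosomes Nr0b1 had 0 H3K27ac interactions in ES and TKO too. For Nr5a2 and Nr0b1, 61.4% and 88.1% of the genes of their chromosomes had at least as many in ES.

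**Figure D1:**
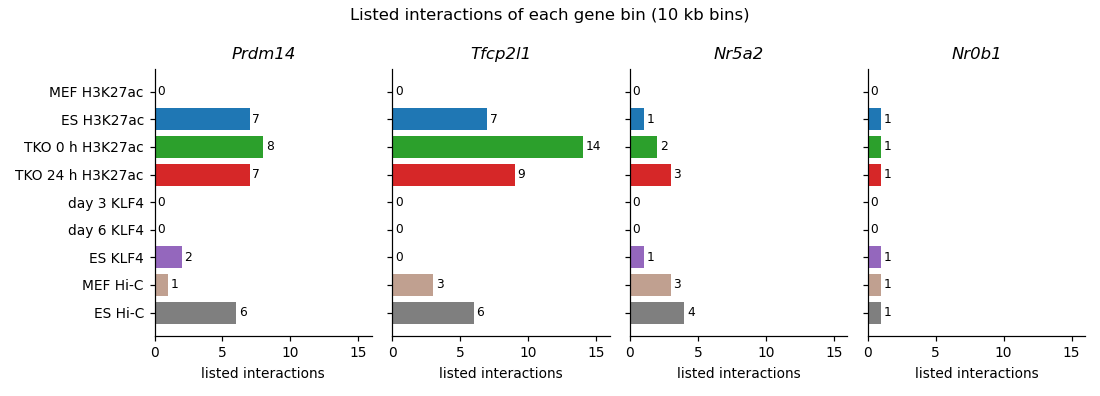
Number of listed interactions (x axis) of the 10 kb bin of each gene in each of the 9 lists (y axis), 1 panel per gene. The bars reach 14 for Tfcp2l1 in TKO at 0 h and are at 0 for all 4 genes in MEF H3K27ac and in KLF4 at day 3 and day 6.

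The emptiness in MEF extended beyond the gene bins. With both anchors within 150 kb of the gene bin, the ES H3K27ac list had 37 interactions at Prdm14, 29 at Tfcp2l1, 14 at Nr5a2 and 1 at Nr0b1, while the MEF list had 0 at each locus. The MEF libraries held 75.0 and 105 M contacts against 166 and 168 M in ES, and the MEF list was shorter (60870 against 75466 interactions). Reduced to the MEF length, the ES list held 5, 4, 1 and 1 interactions of the gene bins in the same order. A window with 0 in MEF and 1 or more in ES was found for 6.40% of the annotated genes, for 14.8% of those on chromosome 1 and for 6.09% of those on chromosome X. The KLF4 windows held 0 interactions at day 3 and 0 at day 6, and in ES 13 at Prdm14, 6 at Tfcp2l1, 8 at Nr5a2 and 1 at Nr0b1. That pattern of 0 at both days and 1 or more in ES held for 9.43% of annotated genes, 17.3% of those on chromosome 1 and 12.5% of those on chromosome X. All of it together (0 in MEF H3K27ac and in KLF4 at day 3 and day 6, and 1 or more in both ES lists) held for 2.27% of annotated genes, 5.31% of those on chromosome 1 and 1.66% of those on chromosome X. The day 6 list was short, with 39 interactions on chromosome 1 and 63 on chromosome X. At day 3 there were 596 and 567, and in ES KLF4 740 and 484.

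The contacts of Tfcp2l1 ran into its own gene body. Its strongest partner in ES H3K27ac was the bin 20 kb above the gene bin (chr1:118640001-118650000), inside the gene, with 20.5 and 22.9 CPM in the 2 ES libraries. The same pair had 26.8, 28.7 and 30.3 CPM in the 3 TKO libraries at 0 h, and 16.6, 19.99 and 17.9 at 24 h. Every library without doxycycline was above every library with it. The pair with the bin at +10 kb had 8.55 and 9.06 CPM in ES, 18.6, 23.0 and 21.4 in TKO at 0 h, and 14.5, 15.2 and 12.5 at 24 h. Here too the 2 TKO groups did not overlap, and ES was below both. The share of all interactions whose libraries separate like this was not computed. Of 14 partner bins in the H3K27ac lists, 6 lay in the gene and 10 on its side of higher coordinate. The longest contact, 450 kb to chr1:119070001-119080000, was listed only in TKO at 0 h, with 3.33, 4.11 and 5.03 CPM. It was the only H3K27ac partner of the 4 genes outside their ES domain.

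Tfcp2l1 was the one gene of the 4 with 0 KLF4 interactions at its own bin in ES, and 38.8% of the chromosome 1 genes had 1 or more there. The 6 KLF4 interactions of the window joined bins between 10 and 80 kb inside and behind the gene, up to 5.27 ± 1.06 CPM (SD, n = 2) between the bins at 70 and 80 kb. In Hi-C the gene bin had 3 listed interactions in MEF and 6 in ES. The pair with +20 kb had a Hi-C signal of 33.1 and 37.1 in MEF and of 41.0 and 42.3 in ES. The signal of Hi-C is scaled by constants of unstated origin, so its levels are not set against CPM.

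Prdm14 reached to lower coordinates. In ES H3K27ac its 7 partners were the 7 bins from 10 to 70 kb below the gene bin, and 0 lay above it. The strongest was at 30 kb (chr1:13090001-13100000), a bin that overlaps the long noncoding RNA gene Gm39592, with 8.95 and 9.29 CPM in the 2 ES libraries. The values were 9.29, 8.84 and 11.4 CPM in TKO at 0 h and 7.99, 6.66 and 9.46 at 24 h, and the 3 groups overlapped. At 24 h the partner at 50 kb was the strongest, with 7.95 ± 0.904 CPM (SD, n = 2). TKO cells at 0 h also had 2 partners on the other side, at 10 and 20 kb, within Ncoa2, a nuclear receptor coactivator gene, with 4.57 ± 1.07 and 3.48 ± 0.210 CPM (SD, n = 2). The bin at 10 kb above had 7 listed H3K27ac interactions in ES, 6 in TKO at 0 h and 2 at 24 h. In ES these joined it to bins other than the gene bin, so the contacts of the locus ran into Ncoa2 in ES too.

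In HiChIP the strongest contacts of the Prdm14 locus joined its partner bins to each other. In ES H3K27ac the strongest pair of the window joined the bins at 40 and 30 kb below Prdm14, with 26.7 ± 1.73 CPM (SD, n = 2), and in TKO at 0 h it joined those at 30 and 20 kb, with 21.9 ± 0.841 CPM (SD, n = 2). These pairs also span a shorter distance than the contacts of the gene with the same bins. KLF4 in ES showed the same stretch: the gene bin was paired with the bins at 20 and 10 kb, with 4.92, 4.26, 6.31 and 5.57 CPM in replicates 1 to 4 for the first. The strongest KLF4 pair of the window was again that of the bins at 30 and 20 kb, with 7.66 ± 0.429 CPM (SD, n = 2). Hi-C listed 1 interaction of the Prdm14 bin in MEF, at 60 kb, and 6 in ES, from 30 to 80 kb, all on the lower side. Its strongest pairs of the window lay elsewhere, between the bins 50 and 60 kb above the gene in ES (signal 55.9 ± 7.82, SD, n = 2) and 120 and 130 kb above it in MEF (53.2 ± 6.86, SD, n = 2).

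**Figure D2:**
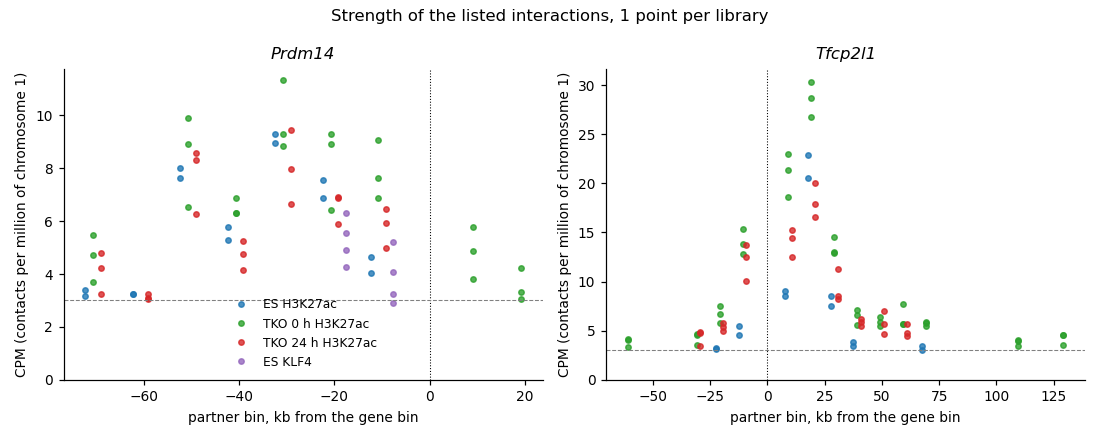
CPM (y axis) of each listed interaction of Prdm14 and Tfcp2l1 against the distance of the partner bin from the gene bin in kb (x axis, within 150 kb), 1 point per library; the dashed line marks the list cutoff of 3 CPM. Prdm14 points lie mostly below the gene bin, and the Tfcp2l1 maximum lies at 20 kb, where the points of TKO at 0 h (26.8 to 30.3 CPM) are above those at 24 h.

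The contacts of Nr5a2 centred on the bin of its inner start rather than on the bin that carries its name. The named bin had 1 H3K27ac interaction in ES, with the bin 10 kb below it, at 8.87 and 8.98 CPM in the 2 libraries. TKO had 10.7, 13.9 and 10.7 CPM for this pair at 0 h and 11.04, 9.35 and 10.4 at 24 h, so the times overlapped. That neighbouring bin (chr1:136950001-136960000) had 9 interactions in ES H3K27ac, 12 in TKO at 0 h and 9 at 24 h, and 3 in ES KLF4, and had an H3K27ac peak at both times. In ES KLF4 the named bin again had this single partner, with 3.58, 3.51, 5.63 and 4.17 CPM in replicates 1 to 4. The Hi-C lists had 3 interactions of the named bin in MEF and 4 in ES, with 1 shared pair, that with the inner start, at 45.8 and 53.2 in MEF and 36.3 and 51.4 in ES.

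Nr0b1 had a single short contact. Its bin paired with the bin 10 kb below it in ES H3K27ac at 5.94 and 6.32 CPM, in TKO at 0 h at 7.62, 11.01 and 8.28, and at 24 h at 8.81, 6.32 and 5.92. The 2 times overlapped. ES KLF4 listed the same pair, with 4.60, 3.03, 6.50 and 6.25 CPM in replicates 1 to 4. It was the only H3K27ac or KLF4 interaction within 150 kb in each of these lists, and rested on 4 to 25 contacts per library. Hi-C saw other partners, at 80 kb in MEF and at 70 kb in ES, on 5 to 12 contacts per library.

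**Figure D3:**
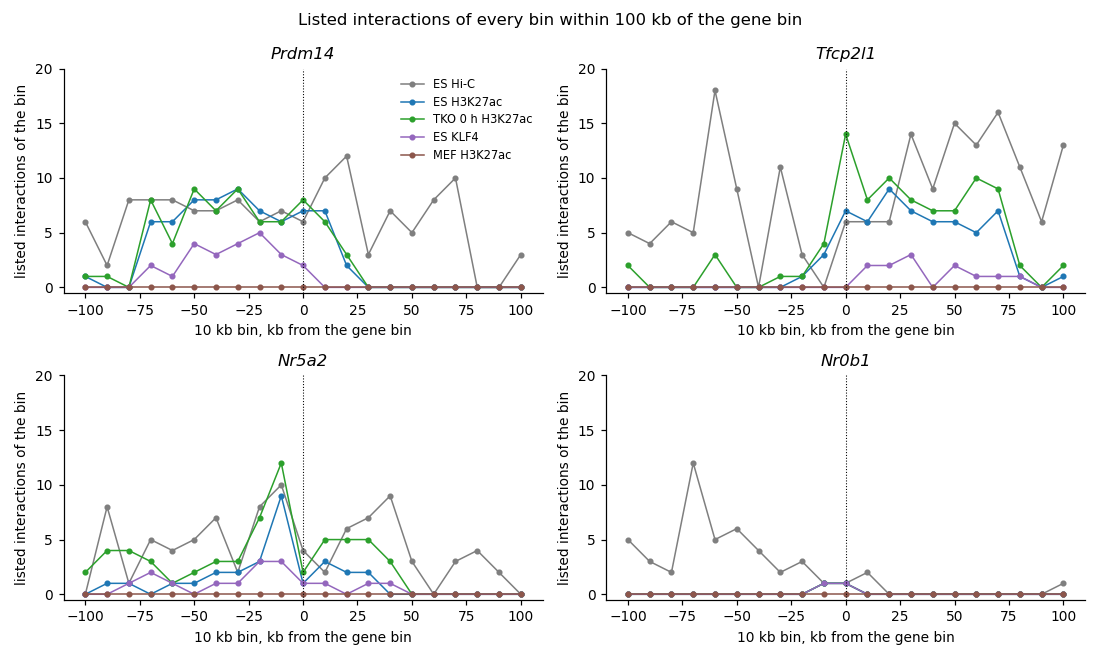
Number of listed interactions (y axis) of every 10 kb bin within 100 kb of each gene bin (x axis, kb), for 5 lists. In ES and TKO H3K27ac the counts fill the stretch below Prdm14, extend to 20 kb above it and fill the body of Tfcp2l1. They peak 10 kb beside the Nr5a2 bin (9 and 12) and stay at 1 at Nr0b1, while MEF H3K27ac is at 0 throughout.

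The partners themselves were mostly bins with an H3K27ac peak, and the authors named no gene in them. Of 27 distinct H3K27ac partner bins, 23 had an H3K27ac peak at both times in the authors' annotation, 2 at 0 h only and 2 at neither. The authors named a gene in 0 of them, yet the Nr5a2 partner at −10 kb holds its inner start. Lists enriched for H3K27ac favour bins with a peak, and the share over all partner bins was not computed. The lists of ES and of TKO at 0 h shared 15 interactions of the 4 genes. These are 93.8% of the ES and 60.0% of the TKO interactions, against 77.6% and 62.8% over the whole lists. The 4 bins were chosen from TKO lists, which favours this overlap, and the whole ES list is not limited to such bins. The 93.8% and 77.6% are therefore not like for like. All 4 KLF4 interactions of ES were also in ES H3K27ac, 25.0% of the latter, against 74.0% and 24.1% over the whole lists. Hi-C in ES held 8 of the 16 H3K27ac interactions of the genes, and 51.2% of the whole H3K27ac list.

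H3K27ac in ES and MEF, and KLF4 at day 3, day 6 and in ES, could not be tested for strength at these genes, since 0 of their interactions were in both lists of any of these pairs. For the same reason no ES to MEF fold is given.

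After 24 h of doxycycline the 2 strongest contacts of the Tfcp2l1 start with its gene body fell, and no other tested interaction of the 4 genes passed the test. Of 25 interactions at 0 h and 20 at 24 h, 18 were in both lists and tested. The pair with +20 kb changed by −0.51 on the log2 scale (SE 0.12, adjusted p = 0.00194), and the pair with +10 kb by −0.44 (SE 0.13, adjusted p = 0.0261; quasi-likelihood test of edgeR, adjusted by Benjamini and Hochberg over all interactions tested). Both were lower in 3 of 3 induced libraries than in any uninduced one. These are the same counts as in the test, and the share of all interactions that separate in this way was not computed. Over all 67728 interactions tested, 2.62% were called, 390 higher and 1384 lower (2.04%); at contact totals without TMM factors the split was 155 and 2670, and the median of all interactions moved to −0.10. Estimates were below 0 for 15 of the 18, with a median of −0.20, against 0.01 over all interactions. The gene-body partner at +30 kb had −0.40 (SE 0.14, adjusted p = 0.118), and those at +40 and +50 kb had −0.0015 and 0.06. The 95% interval of the strongest Prdm14 contact in ES, at 30 kb, ran from −0.50 to 0.12. For Nr5a2 the interval ran from −0.37 to 0.19 at −10 kb and from −0.68 to 0.05 at +10 kb. That of Nr0b1 ran from −0.78 to 0.22. Changes within these intervals were not excluded.

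DESeq2 called 0 of the 18 (2 at an unadjusted p under 0.05), with −0.50 and adjusted p = 0.0918 for +20 kb and −0.42 and adjusted p = 0.302 for +10 kb. Leaving out replicate 2 or 3 of 0 h or replicate 3 of 24 h ended the call at +10 kb (adjusted p = 0.131, 0.0665 and 0.201), whereas the call at +20 kb held without any single library. Interactions of the windows that do not touch the gene bins had 0 calls of 23 at Prdm14, 26 at Tfcp2l1 and 21 at Nr5a2 with edgeR, where 3, 3 and 4 had an unadjusted p under 0.05, and 0 with DESeq2 (1 at Nr5a2 with such a p). Contact totals without TMM or chromosome totals gave 1 lower call each at Prdm14 and Nr5a2, every library separate gave 1 lower at Nr5a2, and the replicate block added 1 higher at Tfcp2l1 to it. Their medians were −0.11, 0.12 and −0.05.

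**Figure D4:**
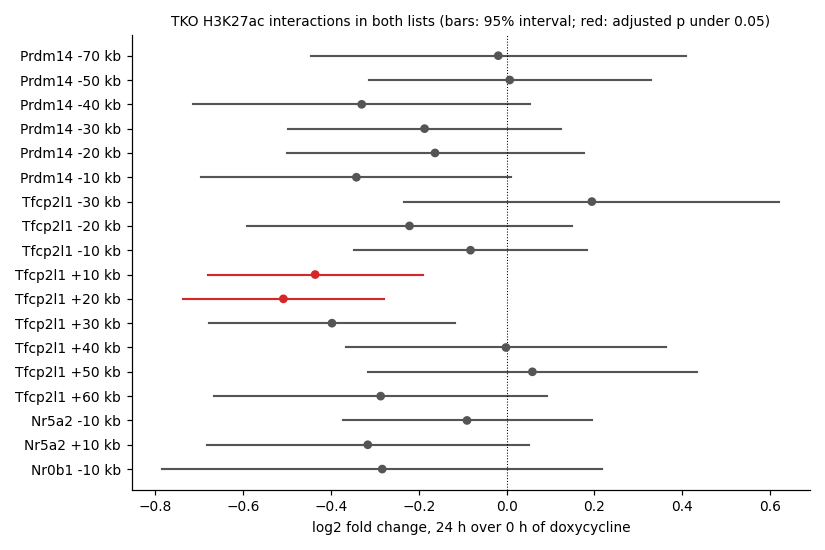
Log2 fold change of H3K27ac interaction strength at 24 h over 0 h (x axis) with its 95% interval, for the 18 interactions of the 4 genes in both TKO lists (y axis, gene and partner distance). The 2 red points, Tfcp2l1 at +10 and +20 kb, were called, at −0.44 and −0.51.

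Numbers moved little with doxycycline apart from Tfcp2l1, whose listed interactions went from 14 to 9. Tfcp2l1 and Prdm14 had fewer at 24 h, Nr5a2 had more and Nr0b1 the same. With the 0 h list reduced to the length of the 24 h list, Prdm14 had 7 at both times and Tfcp2l1 12 and 9. Fewer at 24 h was found for 48.4% of annotated genes and more for 23.8%. Tfcp2l1 lost from the list its partners at 70, 110, 130 and 450 kb above and 60 kb below, all of them at 3.71 to 5.65 CPM on average at 0 h.

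In Hi-C the 4 genes had 8 listed interactions in MEF and 17 in ES, and 4 were in both. None was called, against 0.0322% of 124204 tested, and 0 had an unadjusted p under 0.05 with edgeR or with DESeq2. The estimates of ES over MEF were 0.55 (SE 0.30) for Prdm14 at 60 kb, 0.07 (SE 0.26) and 0.16 (SE 0.29) for Tfcp2l1 at 20 and 30 kb, and −0.34 (SE 0.24) for Nr5a2 at 10 kb. Prdm14, Tfcp2l1 and Nr5a2 had more listed in ES, as did 73.5% of annotated genes. The ES list was longer, with 318622 interactions against 228083, and reduced to the MEF length it held 5, 3 and 3 interactions of these genes against 1, 3 and 3 in MEF. With 1 count cutoff for all chromosomes it held 3, 3 and 3 against the same. In the windows Hi-C listed 13, 37, 18 and 25 interactions in MEF at Prdm14, Tfcp2l1, Nr5a2 and Nr0b1, and 85, 120, 61 and 33 in ES. These were not matched for list length: chromosome 1 had 20088 in ES against 13978, and chromosome X 27953 against 18655. Of those in both lists and not touching the gene bins, 8, 27, 9 and 8 were tested and 0 called with edgeR. Their medians were −0.02, 0.11, −0.07 and −0.065, and 3 at Tfcp2l1 had an unadjusted p under 0.05.

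TKO cells without doxycycline had stronger contacts of the Tfcp2l1 bin than ES cells, in a comparison added after the numbers had been seen. Of 15 interactions in both H3K27ac lists, 6 were higher in TKO and 0 lower. Of all 58574 interactions 16.5% were called, 9.14% higher and 7.39% lower. The gene bins were chosen from TKO lists, which can favour calls higher in TKO, and the 58574 are not limited to such bins. The 6 of 15 and the 9.14% are therefore not like for like. Of the 6, 5 were at Tfcp2l1: −10 kb rose by 1.20 (SE 0.15, adjusted p = 3.16e-09), +10 kb by 0.95 (SE 0.12, adjusted p = 3.52e-09), −20 kb by 0.79 (SE 0.20, adjusted p = 0.00227), +70 kb by 0.54 (SE 0.20, adjusted p = 0.0495) and +30 kb by 0.48 (SE 0.14, adjusted p = 0.00816). These 5 share the gene bin as an anchor, so they are not separate loci. The strongest contact of Tfcp2l1, at +20 kb, had 0.10 (SE 0.09, adjusted p = 0.518). The sixth was Prdm14 at 10 kb, with 0.56 (SE 0.18, adjusted p = 0.018). DESeq2 called 2 of the 15, Tfcp2l1 at −10 and +10 kb. Without TKO replicate 1, or without ES replicate 1, 3 of the 15 were called. The call at +70 kb ended in 5 of the 5 fits that left out 1 library, that at Prdm14 in 3 and that at +30 kb in 2. The estimates in these fits ran from 0.48 to 0.61 at +70 kb, 0.47 to 0.65 at Prdm14 and 0.39 to 0.55 at +30 kb. Leaving out TKO replicate 1 or an ES replicate left 1 sample in its group. The TKO libraries were prepared by another protocol than the ES libraries, per the labels, so the cells and the protocol cannot be told apart.

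The stretch below Prdm14 went the other way. Of 25 interactions of its window that do not touch the gene bin, 12 were lower in TKO and 2 higher. The lower ones joined bins between 70 and 10 kb below the gene, led by 40 with 20 kb at −0.94 (SE 0.14, adjusted p = 2.04e-07). At Nr5a2 7 of 12 such interactions were higher and 0 lower, up to 0.87, among them the pair across the gene's outer start, −10 with +10 kb, at 0.82 (SE 0.12, adjusted p = 1.22e-07). At Tfcp2l1 2 were higher and 3 lower of 21. Over all 58574 interactions tested, 16.5% were called, 9.14% higher and 7.39% lower. The windows lie around bins chosen from TKO lists, so these shares are not like for like with the window counts. Without TMM factors the median of all interactions moved to 0.29 and the split of all calls from 5352 higher and 4326 lower to 17204 and 959. The window counts of higher and lower then became 4 and 5 at Prdm14, 10 and 0 at Nr5a2, and 8 and 0 at Tfcp2l1, so the balance at Prdm14 and Tfcp2l1 depends on the scaling. DESeq2 gave 0 and 5, 2 and 0, and 0 and 0 in the same order (4 at Tfcp2l1 with an unadjusted p under 0.05). Without TKO replicate 1 or ES replicate 1 the calls at Prdm14 numbered 9 rather than 14 and those at Tfcp2l1 3 rather than 5, and without ES replicate 1 those at Nr5a2 numbered 4 rather than 7. Without ES replicate 2 Tfcp2l1 also had 3.

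**Figure D5:**
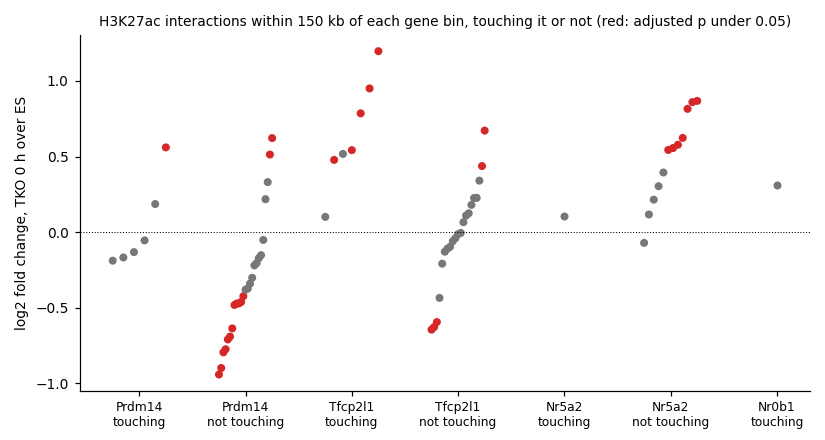
Log2 fold change of H3K27ac interactions in TKO at 0 h over ES (y axis), for interactions within 150 kb of each gene bin that touch it or do not (x axis), 1 point per interaction, red where called. Touching interactions of Tfcp2l1 reach 1.20, and those below Prdm14 that do not touch its bin reach −0.94.

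Other genes of the network were read from 3 lists, of which only genes named in a TKO list could be counted. Over all 12695 such genes, 8305 had more H3K27ac interactions in ES than in MEF and 1863 fewer. Of 18 further naive network genes 16 had an annotated bin, and 14 of them had more in ES and 1 fewer, with a median log2 ratio of 3.09. Nanog had 1 in MEF and 23 in ES, Sall4 0 and 20, and Stat3, a signal transducer that fibroblasts also use, 8 and 3. KLF4 interactions at day 3 were listed for 6 of the 16, such as Klf2 with 3, and for 0 of the 4 genes, against 40.1% of all annotated genes. On the chromosomes of the 4 genes this share was lower, 21.9% on chromosome 1 and 32.1% on chromosome X. Of 10 formative or primed genes 5 had an annotated bin, and these 5 had more in ES, with a median of 2.81, among them Otx2 with 0 and 6. Of 12 fibroblast genes 7 had an annotated bin, and 6 of these had fewer in ES and 1 more, with a median of −2. Col1a1, a collagen gene of fibroblasts, had 8 in MEF and 0 in ES.

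By their numbers over the 9 lists the genes nearest to Prdm14 were Nf2, Phf3 and Ube2c, with Nf2 at a Euclidean distance of 0.34 on the log2(number + 1) scale. Those nearest to Nr5a2 were Pisd (0.641), Mettl16 and Trp73os. Nr0b1 was nearest to 2900052N01Rik, Nrbf2 and Zmynd19, at 0.585 each. Phf3 lies on chromosome 1 with Prdm14.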

How the data were processed

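The 9 interaction lists came from 25 libraries. Reads were aligned with Bowtie2 2.2.3 to mm10, per the submitters' processing notes; the contact caller is not given in the sources used here. Per the file headers, the authors deposited raw counts, CPM values, a distance-normalized ratio, a p-value and an FDR. The deposited Hi-C signal, also headed CPM, is scaled by unstated chromosome constants. The authors' filters left p-values under 0.1 (HiChIP) or 0.01 (Hi-C), CPM above 3 in all H3K27ac libraries and KLF4 replicates 1 and 2, and a Hi-C signal of at least 15. The deposited ratio was not used. The authors also deposited topological domains with a score per domain, per the files; only their borders were used. No column of another sample was used.

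Interactions in both lists were tested on raw counts with edgeR 4.0.16 (R 4.3.3): quasi-likelihood test, filterByExpr, TMM on contact totals (Hi-C: on summed counts), a fit of the compared groups alone, Benjamini-Hochberg adjustment over all interactions, called under 0.05. This step was tested on simulated counts. Intervals are the estimate with its SE, and p-values cover only the spread between these libraries. Libraries were joined where a chi-square test of their counts gave p of 0.01 or more in a group in which another pair differed; no pair differed at day 6, so these stayed separate. DESeq2 1.42.0, other scalings, distance and filter limits and left-out libraries were alternatives. PCR copies are not independent molecules. Tables were handled with Python 3.11.15, pandas 2.3.3 and numpy 2.4.6.

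Named were all 4 genes in every list, with the strongest and longest interactions, every called one, genes of 3 lists and the 3 most alike genes; those most like Tfcp2l1 are not reported here. The members and lists were chosen with earlier results of these data known. The comparison of TKO at 0 h with ES and the 150 kb windows were added after values had been seen.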

Additional observations from a re-analysis of the deposited data

How the results depend on the processing

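Of the TKO interactions at the 4 genes, 2 were called; DESeq2 called 0, anchors at least 50 kb apart gave 0 of 4, and leaving out 1 library gave 1 to 2. For TKO at 0 h against ES the 6 calls became 2 with DESeq2, 1 of 3 with anchors at least 50 kb apart, and 3 to 5 without 1 library. Hi-C stayed at 0 calls under all alternatives run. Over all interactions the calls went from 1774 to 2825 without TMM, 2771 with chromosome totals, 105 with DESeq2 and 112 at 50 kb or more for TKO, and to 1028 to 1205 without 1 library. They went from 40 to 61 with chromosome totals, 0 with DESeq2, 7 at 50 kb or more and 74 with the replicate block for Hi-C, and to 3 to 113 without 1 library. For TKO at 0 h against ES they went from 9678 to 18163, 17841, 1518 and 1259 in the order given for TKO, and to 5751 to 7647 without 1 library. Replicate numbers did not pair the samples: the deviations of same-numbered libraries correlated at −0.0593 to 0.0333. The replicate block, with every library separate, gave 2 calls for TKO and 4 for TKO at 0 h against ES, and 0 for Hi-C.

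The numbers depend on the list threshold. At an FDR under 0.1 in the authors' deposited table the 4 genes had 1 interaction in ES H3K27ac, 4 in TKO at 0 h, 2 at 24 h, and 0 in ES KLF4, MEF Hi-C and ES Hi-C. With 1 bin added to each side of the gene bins they had 43, 58, 42, 10, 15 and 53 in that order. With 1 count cutoff for all chromosomes ES Hi-C had 9, and an ES KLF4 list reduced to the length of day 6 had 0. With a pseudocount of 5 the median log2 ratio of numbers was 0.763 for ES over MEF H3K27ac, 0.263 for ES over day 3 KLF4 and over day 6, −0.0577 for TKO 24 h over 0 h and 0.315 for ES over MEF Hi-C; with 1 it was 2, 1, 1, −0.085 and 0.565.

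Mean strength pools different interactions in each list and the chromosome X scale of Nr0b1 with that of chromosome 1, so it is not compared between lists. It was 6.83 CPM in ES H3K27ac, 8.30 in TKO at 0 h, 7.35 at 24 h and 4.61 in ES KLF4. Scaled to the contact total of the whole library it was 0.496, 0.617, 0.547 and 0.291. Without adjacent bins it was 7.40 at 0 h, 6.61 at 24 h and 25.5 (Hi-C signal) in MEF against 33.3. Without 1 library it ran from 6.62 to 7.03, 8.24 to 8.63, 7.19 to 7.36, 4.35 to 4.88, 32.6 to 33.9 (MEF Hi-C) and 26.3 to 31.6 (ES Hi-C). Listed interactions of the 4 genes held 4 to 291 contacts per library, so modest changes of the weaker ones could be missed at this depth.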
